A study of Homo sapiens with 6 samples.

Results

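The genes described here are 10 building blocks of the tight and adherens junctions that hold epithelial cells together: the claudins CLDN1, CLDN3, CLDN4 and CLDN7, occludin (OCLN), ZO-1 (TJP1), JAM-A (F11R), E-cadherin (CDH1), α-catenin (CTNNA1) and β-catenin (CTNNB1). They were taken by symbol, with no measured value in the rule, but the list was chosen with earlier results of these data known. Of the 28278 gene symbols listed for each library, 15307 passed edgeR's filter on low counts, among them 9 of the 10. HT29, a human colorectal adenocarcinoma cell line of epithelial morphology, was transfected with an siRNA against ALDOA, labelled as genotype ALDOA KD (siALDOA, n = 3), or with a scrambled siRNA, labelled as genotype WT and treatment CTRL (siControl, n = 3). RNA was collected 48 h later from 3 biological replicates of each group. All libraries thus came from a single cell line, every culture had been transfected, and a single siRNA against ALDOA is named.

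In a polarized epithelium such as that of the colon, tight junctions close the gap between neighbouring cells near the apical surface. Claudins form their strands and set which ions and how much water may pass, occludin and JAM-A lie beside them in the membrane, and ZO-1 ties all of these to actin filaments. Just below, E-cadherin molecules of adjacent cells bind each other, and β-catenin and α-catenin link their inner ends to actin. β-catenin also acts in the nucleus as a co-activator of Wnt target genes, a pathway that is commonly active in colorectal cancer.

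The deposited values were read counts per gene symbol, between 27277538 and 33237914 in total per library, and they are given here as CPM, counts scaled to the same library total after TMM normalization. Ribosomal RNA symbols took 7.71% to 13.1% of the counts of the siALDOA libraries and 8.15% to 17.4% of those of the siControl libraries, with the highest shares in siControl 1 and siControl 2. The target of the siRNA was lower in the group labelled for it: ALDOA, the glycolytic enzyme aldolase A, was at 283, 305 and 280 CPM with siALDOA and at 592, 637 and 668 CPM with siControl. That is a log2 fold change of -1.13 (SE 0.060, edgeR adjusted p = 6.95e-11), although 89.8% of the exon bases of its main transcript are shared with the annotated gene ENSG00000285043 on the same strand. Summed over 7 colon epithelial markers, the level was 7885 to 8107 CPM with siALDOA and 8651 to 9123 CPM with siControl. Most of this sum came from 2 keratins, KRT8 (5093 against 5595 CPM on average, log2 fold change -0.14, adjusted p = 0.357) and KRT18 (1911 against 2320 CPM, -0.28, adjusted p = 0.0152). KRT18 was the 1 marker called of the 7, where 9.66% of all tested genes were called. EPCAM (0.13, adjusted p = 0.224) and CDH17 (0.36, adjusted p = 0.182) had log2 fold changes above 0. Those of KRT20 (-0.050, adjusted p = 0.697), VIL1 (-0.10, adjusted p = 0.286) and CDX2 (-0.21, adjusted p = 0.269) were below 0. The markers of fibroblasts summed to 3.05 to 4.46 CPM and those of blood cells to at most 0.251 CPM. Endothelial markers summed to 43.0 to 52.1 CPM, nearly all of it from ESAM, while CDH5, VWF and KDR had between 0 and 3 counts in every library. The part of these differences in the results that follow was not tested.

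Of the 9 junction genes tested, 1 was lower with siALDOA and none was higher at an adjusted p under 0.05 (edgeR's quasi-likelihood test, Benjamini-Hochberg over all 15307 genes). No junction gene was called as higher by DESeq2, limma-voom or any other alternative. CLDN1 was the gene called, and the other 8 had log2 fold changes between -0.16 and 0.14. Among all tested genes, 9.66% were called, 5.29% as lower (810 genes) and 4.36% as higher (668 genes). Scaled by library totals alone, the split was 279 lower and 896 higher. The median log2 fold change of the 9 genes was 0.033, beside 0.0016 over all tested genes. An unadjusted p under 0.05 was reached by 3 of the 9, which were CLDN1, CLDN7 and F11R, where 23.6% of all tested genes reached it. In 6 of the 9 the libraries of the groups did not overlap, with siALDOA above in 2 and below in 4, where 27.7% of all tested genes had groups that did not overlap. Replicates of a gene within a group differed little, with SDs of 0.0083 to 0.11 on the log2 CPM scale. As these are bulk samples, fewer cells of a kind and less RNA per cell cannot be told apart.

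**Figure D1:**
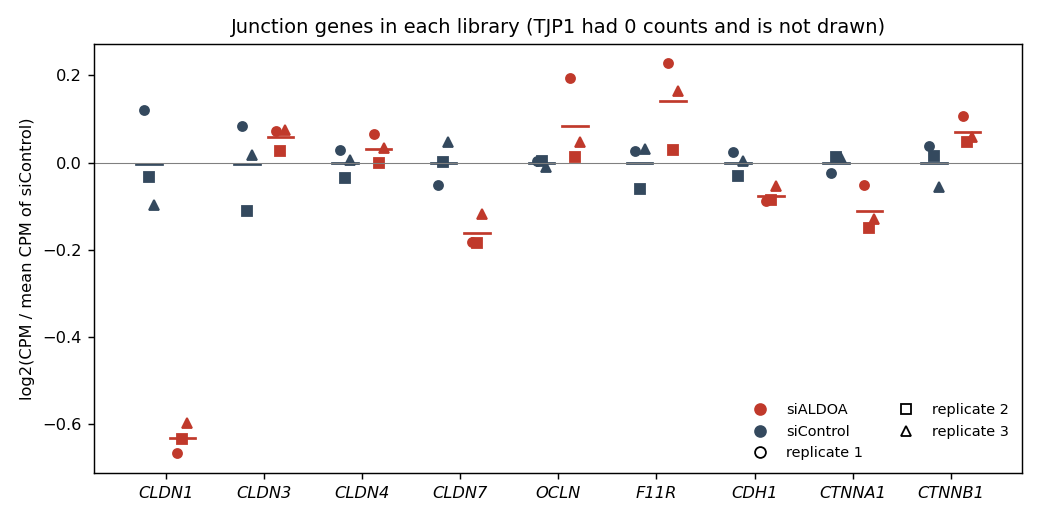
For the 9 junction genes tested, the vertical axis gives the log2 ratio of CPM in each library to the mean CPM of siControl, with siControl in dark blue, siALDOA in red, a marker shape per replicate number and a bar at the mean of each group. The 3 siALDOA libraries of CLDN1 lie far below the 3 siControl libraries, and the other genes stay close to 0, between the -0.16 of CLDN7 and the 0.14 of F11R in fitted log2 fold change.

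The promoters of 3 claudins are shown first, because CLDN1 and CLDN2 are the claudins that moved most in this experiment and CLDN7 is the member next to CLDN1 in size of decrease. RefSeq (GRCh38.p14) gave a window of 300 bases around the gene's start, most of it upstream, for 8 of the 10 junction genes, with F11R and CDH1 not among them, and for CLDN2. The CLDN1 window is chr3:190322397-190322696 on the minus strand, the CLDN7 window is chr17:7262429-7262728 on the minus strand, and the CLDN2 window is chrX:106918110-106918409 on the plus strand, at a listed start 2042 bases away from that of the main GENCODE transcript. Capitals mark 2 short motifs on either strand, the E-box CAGGTG (reverse CACCTG), which the repressors SNAI1 and ZEB1 are known to bind, and the GC box GGGCGG (reverse CCGCCC), which SP1 is known to bind.
CLDN1 promoter: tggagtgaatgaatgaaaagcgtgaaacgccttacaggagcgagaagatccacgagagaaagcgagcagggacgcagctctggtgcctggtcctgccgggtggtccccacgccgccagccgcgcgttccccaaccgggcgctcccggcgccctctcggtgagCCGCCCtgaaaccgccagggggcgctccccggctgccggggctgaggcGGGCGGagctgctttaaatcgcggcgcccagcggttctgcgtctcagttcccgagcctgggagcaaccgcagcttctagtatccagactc
CLDN7 promoter: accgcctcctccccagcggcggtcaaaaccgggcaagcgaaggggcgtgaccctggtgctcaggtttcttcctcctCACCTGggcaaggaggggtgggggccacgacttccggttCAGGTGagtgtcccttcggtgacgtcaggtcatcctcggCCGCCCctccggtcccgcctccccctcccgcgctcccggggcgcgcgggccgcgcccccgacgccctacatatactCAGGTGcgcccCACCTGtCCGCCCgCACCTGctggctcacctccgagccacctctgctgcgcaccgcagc
CLDN2 promoter: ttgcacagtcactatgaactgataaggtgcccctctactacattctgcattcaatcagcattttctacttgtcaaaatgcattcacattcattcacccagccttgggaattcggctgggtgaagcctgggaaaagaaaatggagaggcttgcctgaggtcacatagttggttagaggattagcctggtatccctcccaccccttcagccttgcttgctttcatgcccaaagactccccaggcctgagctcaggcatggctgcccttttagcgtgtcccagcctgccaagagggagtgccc
The CLDN1 window held 2 GC boxes and 0 E-boxes, the CLDN7 window held 2 GC boxes and 5 E-boxes, and the CLDN2 window held neither motif. Their GC content was 67%, 71.7% and 51.3%. Over the 8 junction genes with an entry, the E-box was found in 3 (CLDN3, CLDN7 and OCLN) and the GC box in 7, all but OCLN. The same letters were found in 20.6% and 45% of all 35116 RefSeq promoter windows of this length. A match describes the letters of a window and is no measurement of binding.

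CLDN1 (ENSG00000163347, chromosome 3 of hg38, 190305707 to 190322446, minus strand, 4 exons in its main transcript) encodes claudin-1, a claudin that tightens the barrier. It was at 23.5, 24.0 and 24.6 CPM in the siALDOA libraries and at 40.5, 36.4 and 34.8 CPM in the siControl libraries. All siALDOA libraries thus lay below all siControl libraries, and the siALDOA values sat closer together. The counts behind these levels were 653, 721 and 700 against 1262, 1111 and 1147. The mean fell from 37.2 ± 2.92 to 24.0 ± 0.590 CPM (SD, n = 3 each), a change of -35.4%, with a log2 fold change of -0.63 (SE 0.081, 95% interval -0.80 to -0.46, edgeR adjusted p = 2.27e-05). By p-value it ranked 130 of the 15307 genes. The decrease was called in all 15 alternative analyses, with log2 fold changes of -0.68 to -0.55 and adjusted p up to 3.24e-04. With the ribosomal RNA symbols taken out, the log2 fold change stayed at -0.63.

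CLDN7 (ENSG00000181885, chromosome 17, 7259903 to 7263983, minus strand, 4 exons) is a claudin of the intestinal epithelium that also lies along the lateral membrane. Its level was 191, 191 and 200 CPM with siALDOA and 209, 217 and 224 CPM with siControl, so the groups did not overlap. The log2 fold change of -0.16 (SE 0.056, 95% interval -0.28 to -0.044) did not pass the threshold, with an unadjusted p = 0.00932 and an adjusted p = 0.0774 by edgeR. It was called as lower in 2 of the 15 alternatives, by DESeq2 (adjusted p = 0.0355) and by edgeR with a replicate block (adjusted p = 0.0330). Exons of 2 other annotated genes cover 19.9% of the bases of its main transcript, 269 bases by ENSG00000262302 on the same strand and 38 by ELP5 on the opposite strand. How reads in shared bases were assigned is not given in the sources used here, so its count is uncertain to that extent.

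CLDN4 and CLDN3 lie near each other on chromosome 7, and their proteins are known as the receptors of a bacterial enterotoxin as well as barrier claudins of the gut. CLDN4 (ENSG00000189143, 73799542 to 73832690, plus strand, 1 exon in its main transcript) was at 590, 563 and 577 CPM with siALDOA and 575, 550 and 566 CPM with siControl. The groups overlapped, with a log2 fold change of 0.033 (SE 0.055, 95% interval -0.081 to 0.15, adjusted p = 0.775). CLDN3 (ENSG00000165215, 73768997 to 73770270, minus strand, 1 exon) was at 191, 185 and 192 CPM against 193, 169 and 184 CPM, again with overlapping groups. Its log2 fold change was 0.059 (SE 0.060, 95% interval -0.066 to 0.18, adjusted p = 0.612). The siControl 2 library was the lowest for both genes.

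OCLN (ENSG00000197822, chromosome 5, 69492292 to 69558104, plus strand, 9 exons) encodes occludin, a membrane protein of the strands that takes part in keeping larger molecules out. It measured 67.7, 59.8 and 61.2 CPM with siALDOA and 59.4, 59.4 and 58.8 CPM with siControl. The siControl libraries were nearly equal and all siALDOA libraries lay above them, but siALDOA 2 only narrowly and siALDOA 1 by the most. The log2 fold change was 0.086 (SE 0.066, 95% interval -0.052 to 0.22, adjusted p = 0.473), and without siALDOA 1 it was 0.029.

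F11R (ENSG00000158769, chromosome 1, 160995211 to 161021343, minus strand, 10 exons) encodes JAM-A, an adhesion molecule of the immunoglobulin family at the same contacts. Its values were 256, 223 and 245 CPM with siALDOA and 223, 210 and 223 CPM with siControl, which overlap at siALDOA 2. The log2 fold change of 0.14 (SE 0.060, 95% interval 0.016 to 0.27) had an unadjusted p = 0.0286 and an adjusted p = 0.152. The annotated gene ENSG00000270149 on the same strand shares 39.9% of the exon bases of its main transcript, so reads of both cannot be told apart there.

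TJP1 (ENSG00000104067, chromosome 15, 29699367 to 29968915, minus strand, 28 exons) encodes ZO-1, the scaffold on which tight junctions are assembled. It was listed at 0 counts in all 6 libraries and could not be tested. A count of 0 allows up to 3 counts per library, or 0.0910 to 0.108 CPM, but how reads were assigned to symbols is not given in the sources used here, so this limit holds for the listed counts and no level or change of ZO-1 mRNA is given. A second large scaffold gene of these junctions, MPDZ, was listed at 0 in all libraries as well.

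CDH1 (ENSG00000039068, chromosome 16, 68737292 to 68835537, plus strand, 16 exons) encodes E-cadherin, the adhesion receptor of the adherens junction, whose loss is the usual sign of an epithelial-mesenchymal transition. It was at 496, 497 and 507 CPM with siALDOA and 536, 516 and 528 CPM with siControl. The groups did not overlap, but the distance was small, with a log2 fold change of -0.075 (SE 0.053, 95% interval -0.19 to 0.036, adjusted p = 0.428). Scaled by library totals alone, the log2 fold change was -0.0022. The interval leaves room for a decrease of 12.1% or an increase of 2.50%. An opposite-strand gene, ENSG00000260798, covers 4.41% of the exon bases of its main transcript.

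CTNNA1 (ENSG00000044115, chromosome 5, 138610967 to 138935034, plus strand, 18 exons) encodes α-catenin, the link from the cadherin complex to actin. With siALDOA it was at 425, 396 and 403 CPM, and with siControl at 433, 444 and 443 CPM. All siALDOA libraries were below, siALDOA 1 closely so, and the log2 fold change of -0.11 (SE 0.054, 95% interval -0.22 to 0.0034) missed the threshold at an adjusted p = 0.229.

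CTNNB1 (ENSG00000168036, chromosome 3, 41194741 to 41260096, plus strand, 15 exons) encodes β-catenin. Its level was 198, 190 and 191 CPM with siALDOA and 188, 185 and 177 CPM with siControl, with all siALDOA libraries above. The log2 fold change was 0.071 (SE 0.056, 95% interval -0.045 to 0.19, adjusted p = 0.483). For the 8 junction genes that were not called, the 95% intervals together ran from -0.28 to 0.27 on the log2 scale, so larger changes in either direction lay outside the interval of every one of them. The sign of the fold change was the same in all 15 alternative analyses for each of the 9 genes.

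**Figure D2:**
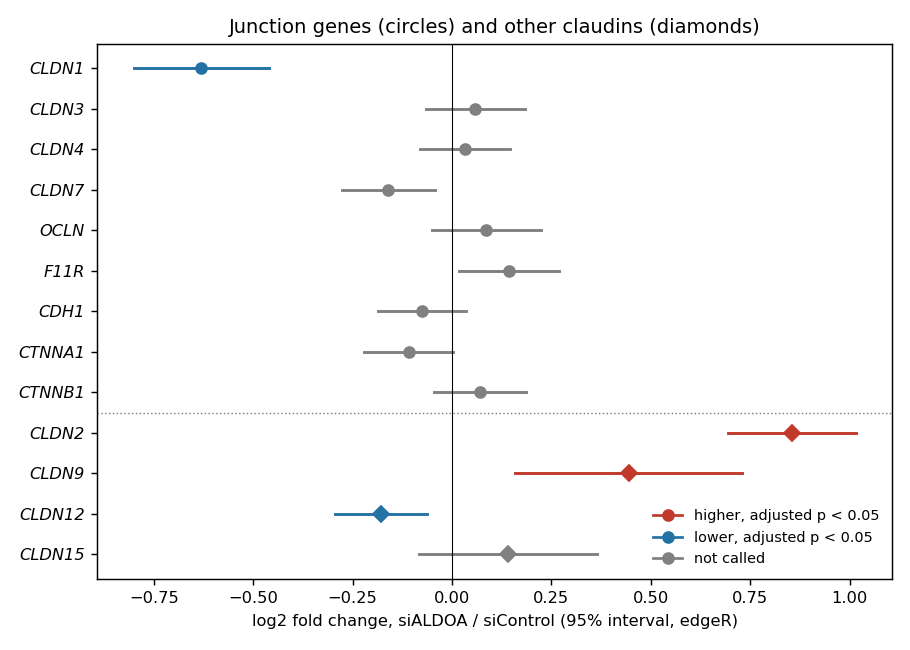
The horizontal axis gives the edgeR log2 fold change of siALDOA over siControl with its 95% interval, for the 9 junction genes tested (circles) and the 4 other claudins with a group mean of at least 5 CPM (diamonds), in red or blue where the adjusted p was under 0.05. CLDN1 at -0.63 and CLDN2 at 0.86 lie on opposite sides of 0, and the grey intervals lie closer to it, the widest being that of CLDN15 from -0.083 to 0.37.

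To compare the genes with each other, CPM were divided by the length of each gene's main transcript in GENCODE release 44. On this scale CLDN4 had the highest level of the 9 junction genes, at 333 ± 7.40 CPM per kb with siControl and 340 ± 7.99 with siALDOA (SD, n = 3). CLDN3 (143 ± 9.71 with siControl) and CLDN7 (141 ± 4.90) followed and overlapped each other in siControl. With siALDOA they did not overlap, with CLDN3 at 149 ± 2.79 and CLDN7 at 126 ± 3.31. CTNNA1 (117 ± 1.62 with siControl) and CDH1 (110 ± 2.12) came next without overlap. CTNNB1 (50.1 ± 1.66) and F11R (47.1 ± 1.66) were close neighbours in siControl, and their siALDOA libraries overlapped. At the low end, CLDN1 (10.8 ± 0.847) stood above OCLN (9.58 ± 0.0548) in every siControl library. With siALDOA the order of the lowest pair was turned, with CLDN1 at 6.81 to 7.15 and OCLN at 9.67 to 10.96 CPM per kb.

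**Figure D3:**
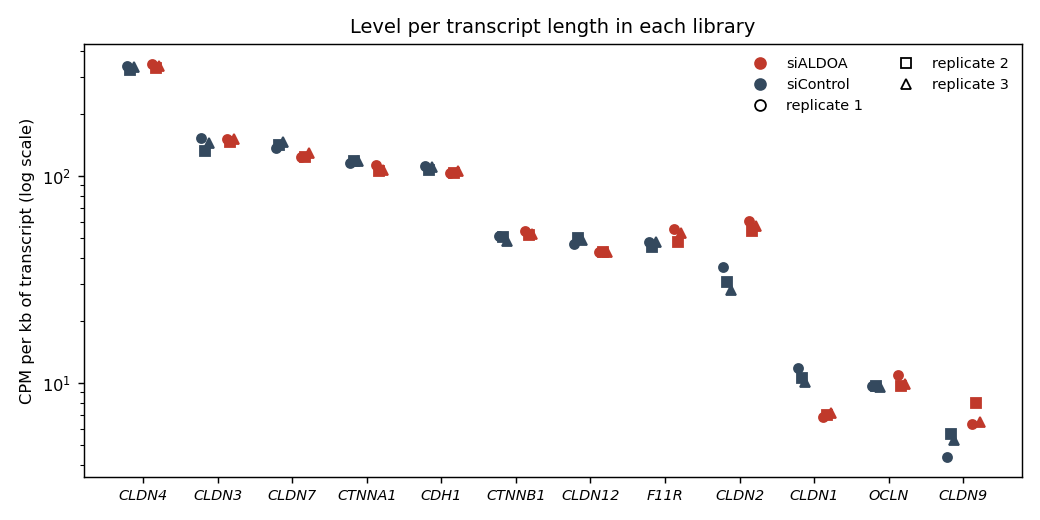
The vertical axis gives CPM per kb of the main transcript on a log scale for 12 genes in each library, with siControl in dark blue, siALDOA in red and a marker shape per replicate number. Genes are ordered by their siControl mean, from CLDN4 at 325 to 348 CPM per kb over all libraries to CLDN9 at 4.38 to 8.03. With siALDOA, CLDN1 drops below OCLN, and CLDN9 at 6.31 to 8.03 overlaps CLDN1 at 6.81 to 7.15. CLDN2 lies at 28.1 to 36.3 CPM per kb with siControl and 54.2 to 60.8 with siALDOA.

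Beyond the claudins among the 10 genes, the claudin family had 20 further symbols, of which 6 were tested (2 called as higher and 1 as lower, where 4.36% and 5.29% of all tested genes were), 6 were at 0 in all libraries and the remaining 8 had at most 12 counts in any library. CLDN2, whose protein forms a pore for cations and water and so makes an epithelium leakier, was at 180, 160 and 169 CPM with siALDOA and 108, 90.4 and 83.3 CPM with siControl. Every siALDOA library was above every siControl library, and the change was 81.0% (log2 fold change 0.86, SE 0.077, edgeR adjusted p = 1.42e-07). It was called in all 15 alternatives, with log2 fold changes of 0.78 to 0.97.

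CLDN9 was also higher, at 9.99, 12.7 and 10.3 against 6.93, 8.95 and 8.38 CPM (log2 fold change 0.44, SE 0.14, adjusted p = 0.0442). This call was near the threshold: it was made in 9 of the 15 alternatives and in 1 of the 6 in which a library was left out. CLDN12 was lower, at 152, 151 and 152 against 166, 176 and 173 CPM (log2 fold change -0.18, SE 0.055, adjusted p = 0.0446). It was called in 8 of the 15 alternatives and in 2 of the 6 with a library left out, and the adjusted p was 0.479 after scaling by library totals alone. Of the uncalled members of this family, CLDN15 had a log2 fold change of 0.14 (adjusted p = 0.468) and CLDN11, at about 1 CPM, one of -0.39 (adjusted p = 0.678). Without siControl 1 that of CLDN11 was 0.41, so its direction hung on 1 library.

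Within a library, the ratio of the counts of a pair of genes does not depend on the scaling between libraries. For 7 pairs chosen after the values were seen, the ratio was compared by an exact two-sided permutation test, whose smallest possible p with 3 against 3 is 0.10, so that no pair could pass 0.05. Counts of CLDN2 were 7.68, 6.68 and 6.85 times those of CLDN1 in the siALDOA libraries and 2.66, 2.48 and 2.39 times in the siControl libraries (7.07 ± 0.531 against 2.51 ± 0.135, SD, n = 3, exact permutation p = 0.10, 0.14 after Benjamini-Hochberg over the pairs). The ratio of CLDN1 to CLDN4 was 0.0397, 0.0426 and 0.0427 against 0.0704, 0.0661 and 0.0615. That of CLDN7 to CLDN3 was 0.999, 1.03 and 1.04 against 1.08, 1.29 and 1.22. In these 3 pairs the groups did not overlap, which is a description only, since the pairs were picked on these values.

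For the adherens junction, counts of CTNNB1 relative to CDH1 were 0.398, 0.382 and 0.376 with siALDOA and 0.351, 0.359 and 0.334 with siControl. The choice of this pair, from a gene with all siALDOA libraries above and a gene with all below, neither of them called, already fixed that the ratio would not overlap. The ratio of CDH1 to CLDN4 was 0.840, 0.882 and 0.880 with siALDOA and lower than the siControl values of 0.932, 0.938 and 0.933. The exact permutation p was 0.10 for each of these pairs as well. The ratios of CTNNA1 to CDH1 and of F11R to OCLN overlapped between the groups (exact permutation p = 0.50 for both).

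**Figure D4:**
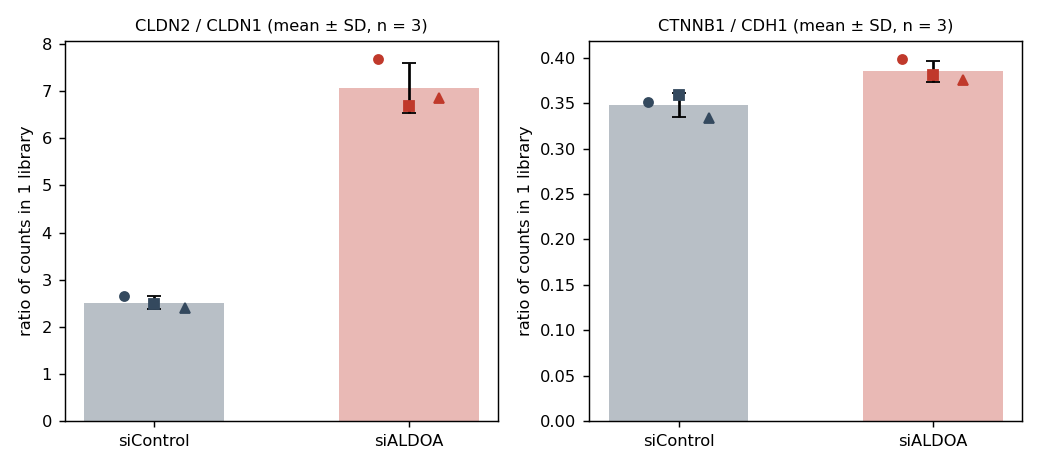
Bars give the mean ratio of the counts of a pair of genes within a library, with SD and n = 3, and points give the libraries, with a marker shape per replicate number as before. The left panel has CLDN2 over CLDN1, at 7.07 with siALDOA and 2.51 with siControl, the right panel CTNNB1 over CDH1, at 0.385 and 0.348, and the groups do not overlap in either.

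As shares of the summed length-scaled level of 7 claudins (the 4 junction members with CLDN2, CLDN9 and CLDN12), CLDN4 took 46.4% to 47.1% in all 6 libraries. CLDN1 took 0.921% to 0.976% with siALDOA and 1.41% to 1.62% with siControl, and CLDN2 took 7.59% to 8.22% and 3.93% to 5.01%. CLDN7 took 16.8% to 17.7% with siALDOA and 18.7% to 20.3% with siControl. The claudins that changed most, CLDN1 and CLDN2, thus had lower levels than CLDN4, CLDN3 and CLDN7 in every library.

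Other genes of the same junctions were counted from lists of their known parts. Of 27 further tight junction proteins and scaffolds, 24 were tested, 0 were higher by edgeR or any alternative (4.36% of all tested genes were higher) and 2 were lower (5.29% were lower). The list's median log2 fold change was -0.041, and 5 of the 24 had an unadjusted p under 0.05, near the 23.6% of all tested genes. CXADR, an adhesion molecule related to JAM-A, was at 52.1, 53.2 and 54.1 CPM with siALDOA against 61.4, 66.7 and 57.6 (log2 fold change -0.22, SE 0.068, adjusted p = 0.0457). PALS1, a scaffold of the apical polarity complex that was listed under its older symbol MPP5, was at 38.0, 36.5 and 33.3 against 44.1, 40.7 and 43.8 CPM (log2 fold change -0.25, SE 0.075, adjusted p = 0.0343). Both calls were close to the threshold and were made in 6 and 10 of the 15 alternatives. CRB3, the membrane partner of PALS1, had a log2 fold change of -0.25 that missed the threshold (adjusted p = 0.0774), and the polarity kinase PRKCI one of -0.16 (adjusted p = 0.141).

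Of 20 further adherens junction genes, 17 were tested and edgeR called none in either direction, where 9.66% of all tested genes were called, while 2 had an unadjusted p under 0.05, against 23.6% of all tested genes. The median log2 fold change was -0.024. These 2 were VCL, the actin linker vinculin (-0.14, adjusted p = 0.147), and CDH17, the cadherin of intestinal cells (0.36, adjusted p = 0.182), which had mean levels of 5.90 ± 0.451 CPM with siALDOA and 4.60 ± 0.501 CPM with siControl (SD, n = 3). DESeq2 and limma-voom called none of the 17 either.

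Desmosomes, which anchor keratin filaments at spots along the same membranes, had 15 listed genes, of which 12 were tested, with a median log2 fold change of -0.12. PPL, the plaque protein periplakin, was lower at 132, 139 and 145 CPM against 165, 167 and 183 CPM (log2 fold change -0.31, SE 0.061, adjusted p = 0.00238), and it was called in 14 of the 15 alternatives. The 1 call of 12 is a share near the 9.66% of all tested genes. None was higher by edgeR or any alternative, and 3 of the 12 had an unadjusted p under 0.05, near the 23.6% of all tested genes. The next by p were EVPL, the related envoplakin (-0.17, adjusted p = 0.107), and PKP3, plakophilin 3 (-0.14, adjusted p = 0.160).

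Of 13 transcription and splicing regulators of epithelial genes, all were tested and 3 were lower, where 5.29% of all tested genes were. In 7 of the 13 every siALDOA library lay below siControl (14.6% of all tested genes), 4 had an unadjusted p under 0.05 (23.6% of all tested genes), and the list's median log2 fold change was -0.10. KLF5, a zinc finger factor of proliferating crypt cells, was at 531, 503 and 515 CPM with siALDOA and 625, 616 and 638 CPM with siControl, with no overlap (log2 fold change -0.28, SE 0.055, adjusted p = 0.00210, called in 14 of the 15 alternatives). KLF4, known from differentiating intestinal cells, was at 14.2, 16.1 and 16.6 against 18.1, 20.7 and 21.4 CPM (log2 fold change -0.36, adjusted p = 0.0279). HNF4A, a nuclear receptor that keeps intestinal epithelial genes on, was at 78.3, 79.8 and 82.1 against 96.3, 90.5 and 91.7 CPM (log2 fold change -0.21, adjusted p = 0.0272). Each of KLF4 and HNF4A was called in 10 of the 15 alternatives. GRHL3 (-0.33, adjusted p = 0.117) and OVOL2 (-0.42, adjusted p = 0.265) were not called.

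Of 13 repressors of epithelial genes and mesenchymal genes, 6 were tested and 4 (SNAI2, TWIST1, TWIST2 and SPARC) were at 0 in all libraries. Of all 28278 listed symbols, 7308 were at 0 in all libraries. How reads were assigned to symbols is not given in the sources used here, so a listed 0 is no measured absence. Of the 6 tested, 1 was called, where 9.66% of all tested genes were, and 2 had an unadjusted p under 0.05, where 23.6% did. VIM, the intermediate filament protein of mesenchymal cells, had at most 2 counts in any library. TGFBI, an extracellular matrix protein induced by TGF-β, was the gene called as higher, at 59.9, 58.3 and 59.3 against 37.7, 38.6 and 35.6 CPM (log2 fold change 0.67, SE 0.067, adjusted p = 7.01e-07, called in all 15 alternatives). The repressor SNAI1 had low levels, at 0.970, 0.932 and 0.845 with siALDOA and 1.44, 1.77 and 1.27 with siControl. All its siALDOA libraries lay below siControl, with a log2 fold change of -0.70 that did not pass the threshold (unadjusted p = 0.0462, adjusted p = 0.201). FN1, fibronectin, had a log2 fold change of 0.23 (adjusted p = 0.698), which was -0.029 without siALDOA 3 and 0.49 without siControl 3.

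All 9 genes of E-cadherin turnover and cleavage were tested, and 1 was called, a share near the 9.66% of all tested genes. An unadjusted p under 0.05 was reached by 3 of the 9, against 23.6% of all tested genes, and 4 had all siALDOA libraries above siControl, against 13.1%. ADAM15, a membrane protease that can cut E-cadherin, was at 85.6, 95.5 and 92.0 CPM with siALDOA and 64.7, 74.0 and 68.5 CPM with siControl (log2 fold change 0.40, SE 0.067, adjusted p = 4.69e-04, called in all 15 alternatives). The endocytic GTPase ARF6 (0.17, adjusted p = 0.0649) and the recycling GTPase RAB25 (0.14, adjusted p = 0.156) lay above siControl in every siALDOA library without being called. The list's median log2 fold change was 0.022.

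**Figure D5:**
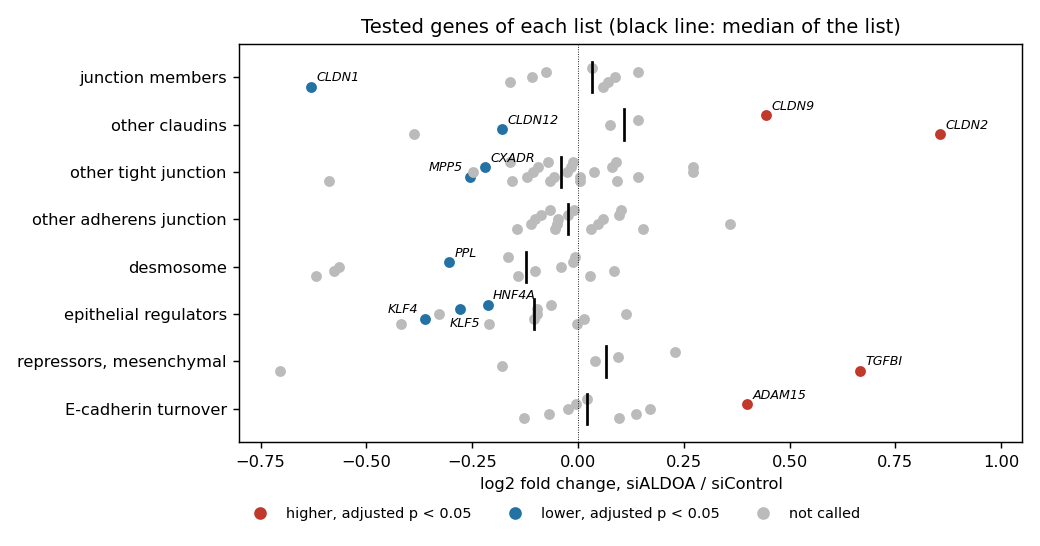
Each point is the edgeR log2 fold change of a tested gene, with a row for the junction members and for each of the 7 neighbouring lists and a black line at the list's median, in red or blue where the adjusted p was under 0.05. The medians lie between -0.12 for the desmosome genes and 0.11 for the other claudins, and the called genes, labelled by symbol, run from CLDN1 at -0.63 to CLDN2 at 0.86.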

How the data were processed

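Total RNA of HT29 cells was sequenced in 6 libraries, 3 with siALDOA and 3 with siControl, grouped by their labels. The authors mapped reads with tophat2 (build hg38), and gfold gave their counts per gene symbol. The deposited counts are whole numbers without normalization, of 1 library per file, and the submitters' processing notes also name edgeR and limma. The annotation, the strand setting and the treatment of reads with several matches are not given in the sources used here.

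Counts were compared by the quasi-likelihood F-test of edgeR 4.0.16 (R 4.3.3) after filterByExpr and TMM normalization, without a covariate and with Benjamini-Hochberg adjustment over all tested genes at 0.05. SE was obtained from the F statistic and the log2 fold change, and 95% intervals used the t distribution. At this depth the floor of 3 counts is 0.0910 to 0.108 CPM. Limits set by 3 counts cover counting error only. The members and lists were chosen with earlier results of these data known. Named genes were ALDOA, all 10 members and, per list, every call and the 2 next smallest p, beside list genes at or near 0 counts and cell type markers, of which MPDZ, VIM and the single markers were picked after their values were seen. The 7 ratios were added after the values were seen. Numbered replicates were not treated as pairs. Alternatives were library totals only, upper quartile normalization, DESeq2 1.42.0, limma-voom (limma 3.58.1), no filter, a minimum of 10 counts per library, blocking on the replicate number, leaving out each library and, added after the data were seen, ribosomal RNA symbols taken out with either TMM or library totals. On simulated counts for 15155 genes edgeR recovered 95% of changes of 0.5 and 100% of changes of 1 on the log2 scale, with 12 false calls of 207. The changed genes, 100 of each size, were drawn only from genes above a minimum mean CPM. Recovery at low CPM and of changes under 0.5 was thus not simulated. Gene models were from GENCODE release 44 and promoters from RefSeq GRCh38.p14. Figures were drawn with matplotlib 3.10.9.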

Additional observations from a re-analysis of the deposited data

How the results depend on the processing

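Over the 13 planned and 2 added alternatives, none of the 9 tested junction genes changed sign, and CLDN1 was called as lower in every one. CLDN7 was called as well by DESeq2 (log2 fold change -0.16, adjusted p = 0.0355) and with a replicate block (-0.16, adjusted p = 0.0330), so that 2 members were lower there. Replicate numbers were not taken as pairs, since deviations of same-numbered libraries correlated at 0.035, 0.027 and 0.026, under the limit of 0.1. Every library still correlated best with its own number, with -0.046 to 0.022 between different numbers, which is a hint from the data and not from the design. With the replicate block calls rose over all genes, to 987 higher and 1175 lower from 668 and 810, and 4 other tight junction genes were lower and 2 turnover genes higher. DESeq2 called 774 of all genes higher and 925 lower and gave 2 turnover genes as well, limma-voom 1 other claudin higher and 1 other tight junction gene lower, and upper quartile normalization 0 other claudins and 1 other tight junction gene lower. With library totals as the sole scaling, the median log2 fold change was 0.075 over all genes and 0.11 over the members, with 896 of all genes higher and 279 lower, and with 0 lower among other claudins, other tight junction genes, desmosome genes and epithelial regulators. Without ribosomal RNA symbols and with library totals, 0 other claudins and 1 other tight junction gene were lower and 2 turnover genes higher, while 760 of all genes, 1 desmosome gene and 3 epithelial regulators were lower and the median over all genes was 0.0099. The cause of these shifts was not tested.

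With 1 library left out, the remaining sample numbers were smaller, and calls ranged from 359 to 644 higher and 471 to 790 lower over all genes. The fewest higher were without siControl 2 (359, with 490 lower) and the fewest lower without siControl 3 (471, with 363 higher). The ranges were 1 to 2 higher and 0 to 1 lower for other claudins, 0 to 2 lower for other tight junction genes, 1 to 3 lower for epithelial regulators and 0 to 1 lower for repressors and mesenchymal genes. The 1 lower call in that last list was made without siALDOA 3, for a gene that had not passed the filter with all libraries. With 3 libraries per group and at these levels, CLDN12 at -0.18 was called and CLDN7 at -0.16 was not.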
